A study of Mus musculus with 6 samples.

Results

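NRF2 targets and the glutathione synthesis pathway were examined in macrophages sorted from Day 3 skin wounds of young and aged mice. The set holds 10 genes of 15168 in the deposited count matrix. They were chosen by gene symbol, on knowledge of the pathway and with the aged against young fold changes of these same samples in view, so their differences between the ages are a description: no p-value is given for them, and where a gene is said to pass a threshold, this places it in the fit across all genes and is no independent test of it. They are Nfe2l2 and Keap1, which encode NRF2 and its inhibitor, the glutathione genes Slc7a11, Gclc, Gclm, Gss and Gsr, and the thioredoxin and peroxiredoxin genes Txnrd1, Prdx1 and Srxn1. All 10 passed the filter on low counts, with 98 to 31699 counts in any sample.

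NRF2 is a transcription factor that the adaptor protein KEAP1 holds in the cytoplasm and hands to a ubiquitin ligase for degradation. When electrophiles or oxidants modify cysteines of KEAP1, NRF2 escapes, enters the nucleus, pairs with a small MAF protein and binds antioxidant response elements near genes of glutathione synthesis, thioredoxin recycling and detoxification. Much of this control is on the NRF2 protein, which RNA does not show. Glutathione is built from glutamate, cysteine and glycine, cysteine supply being the usual limit, and macrophages use it to survive the oxidants they make in a wound.

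The mice were female wild type C57BL6/J, labelled 12 weeks old (young) or 24 months old (aged), and all had full-thickness excisional wounds on the back, taken on day 3. Cells were sorted as F4/80+ CD64+ macrophages from live CD45+ CD11b+ wound cells, with no neutrophil exclusion marker in the sort, and their RNA was sequenced from very low input. There were 3 samples per age, with set letters A, B and C. The animals were kept in Singapore or Manchester; the labels do not say which samples came from which, nor that each came from separate animals, so p-values measure the spread between these samples, which may be technical.

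Library totals ran from 15270103 to 17927483 counts, so that 1 count was worth 0.0553 to 0.0701 CPM, the unit of level used here, which scales counts for library size and composition. Of 11878 genes tested, 1044 were called at an adjusted p under 0.05 and a fold change over 2 in edgeR (quasi-likelihood, p-values adjusted by Benjamini-Hochberg over all genes tested). The sort genes were present in every sample: Ptprc and Fcgr1 did not pass the test, Itgam rose in aged samples (log2 fold change 0.99, adjusted p = 0.0074) and Adgre1, which encodes F4/80, fell (-0.69, adjusted p = 0.0292). In bulk RNA, fewer cells of a type and less RNA per cell cannot be told apart.

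Antioxidant response elements were looked for in the promoters, to show where NRF2 could meet these genes. RefSeq windows on GRCm38.p6, from 250 bases before to 50 bases after each gene's start, were matched by symbol for 8 of the 10 genes, and not for Gclc and Gsr. The core was searched on both strands as the letters TGACNNNGC. These letters were in the windows of 5 of the 8 genes, against 13.99% of 27025 genes with a window, and the letters are a match and not a measured binding site. The stretches around the matches are shown 5′ to 3′ on the strand of each gene, with the core in capitals, as it reads on that strand or as its reverse complement. They lie at chr2:75704870-75704913 (minus strand) for Nfe2l2, chr3:122245398-122245456 (plus) for Gclm, chr10:82859089-82859147 (plus) for Txnrd1, chr4:116685441-116685499 (plus) for Prdx1 and chr2:152105542-152105570 (plus) for Srxn1.
Nfe2l2: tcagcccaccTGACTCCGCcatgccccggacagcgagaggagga
Gclm: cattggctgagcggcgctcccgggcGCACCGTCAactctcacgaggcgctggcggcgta
Txnrd1: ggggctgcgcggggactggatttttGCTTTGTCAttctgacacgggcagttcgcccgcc
Prdx1: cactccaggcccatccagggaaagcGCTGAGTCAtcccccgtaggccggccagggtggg
Srxn1: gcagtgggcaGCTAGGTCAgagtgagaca

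The match began 240 bases before the start in Nfe2l2, 134 in Gclm, 92 in Txnrd1 and 133 in Prdx1, whereas in Srxn1 it lay 29 bases inside the transcribed part. With only the 250 bases before the start, 4 of 8 genes held the letters, against 11.52% of all genes. Txnrd1 has 3 annotated starts, and 1 of its 3 windows held them. Of the 5 genes with the letters, Txnrd1 and Srxn1 were higher in aged samples past the threshold of the test, while Nfe2l2, Gclm and Prdx1 did not pass it.

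The window of Slc7a11, the gene with the largest fold change of the set, did not contain the core. Sequence outside the windows was not searched, so this does not show that the gene lacks such elements. After its values had been seen, it was searched for TGATGNAA on both strands, letters of the composite element bound by ATF4, a transcription factor of the amino acid stress response that is also known to act on Slc7a11. Slc7a11 was the 1 gene of the 8 that held these letters, against 4.51% of all genes. It held them on both strands, beginning 66 and 47 bases before its start at chr3:50443628-50443704 (minus strand). The letters were chosen for this gene, so that share is no test of the match. Whether ATF4 acted on Slc7a11 in these cells was not tested. Among the other pathway genes described below, both sets of letters were searched, also after the values were seen, in the 12 of 14 genes passing the test that have a window. The letters of ATF4 were in 1 of the 12, Chac1, a glutathione-degrading enzyme, 193 bases before its start at chr2:119351024-119351081 (plus strand). The antioxidant core was in 3 of the 12, Mafg and Sesn2, which rose, and Hagh, which fell. The stretches of Slc7a11 and Chac1 are shown with the letters in capitals.
Slc7a11: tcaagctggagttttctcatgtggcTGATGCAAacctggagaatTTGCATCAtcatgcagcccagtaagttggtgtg
Chac1: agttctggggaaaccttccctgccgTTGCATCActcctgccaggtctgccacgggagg

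Levels were ordered per kilobase of merged exon, since genes differ in length. In young macrophages Prdx1 was the most abundant at 661 CPM per kb, followed by Nfe2l2 (139), Srxn1 (72.2), Gsr (54.8), Txnrd1 (48.7), Gclm (14.5), Gss (6.91), Slc7a11 (6.11), Gclc (5.70) and Keap1 (4.20). In aged macrophages the first 5 were ordered alike, Prdx1 at 461 CPM per kb, Nfe2l2 at 199.5, Srxn1 at 169, Gsr at 144 and Txnrd1 at 120.1. Slc7a11 stood eighth of 10 in young and sixth in aged samples, at 32.1 CPM per kb. Neighbours in this order that differed by less than the larger of their SDs are not resolved. In young samples these were Srxn1, Gsr and Txnrd1, and Gss, Slc7a11, Gclc and Keap1, and in aged samples Nfe2l2, Srxn1, Gsr and Txnrd1, and Gss and Keap1. Of the synthesis enzymes, the highest per kilobase, Gclm, was at 18.6 CPM per kb in aged samples, Gclc at 8.56 and Gss at 4.12.

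Between the ages, 4 of the 10 genes were higher in aged macrophages past both thresholds of the call, namely Slc7a11, Gsr, Txnrd1 and Srxn1, and none was lower. Over all tested genes 4.59% were called higher and 4.20% lower. At an adjusted p under 0.05 with no fold threshold, the 4 higher genes were joined by 1 lower gene, Gss, and 5 did not pass; over all genes 9.73% were higher and 7.97% lower by that rule. All aged samples lay above all young samples for 5 of the genes (19.2% of all genes) and below them for 3 (19.0% of all genes). The median log2 fold change was 0.55 over the 10 genes and -0.02 over all genes tested. Nothing is read from these counts, since this contrast was in view when the genes were chosen.

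**Figure D1:**
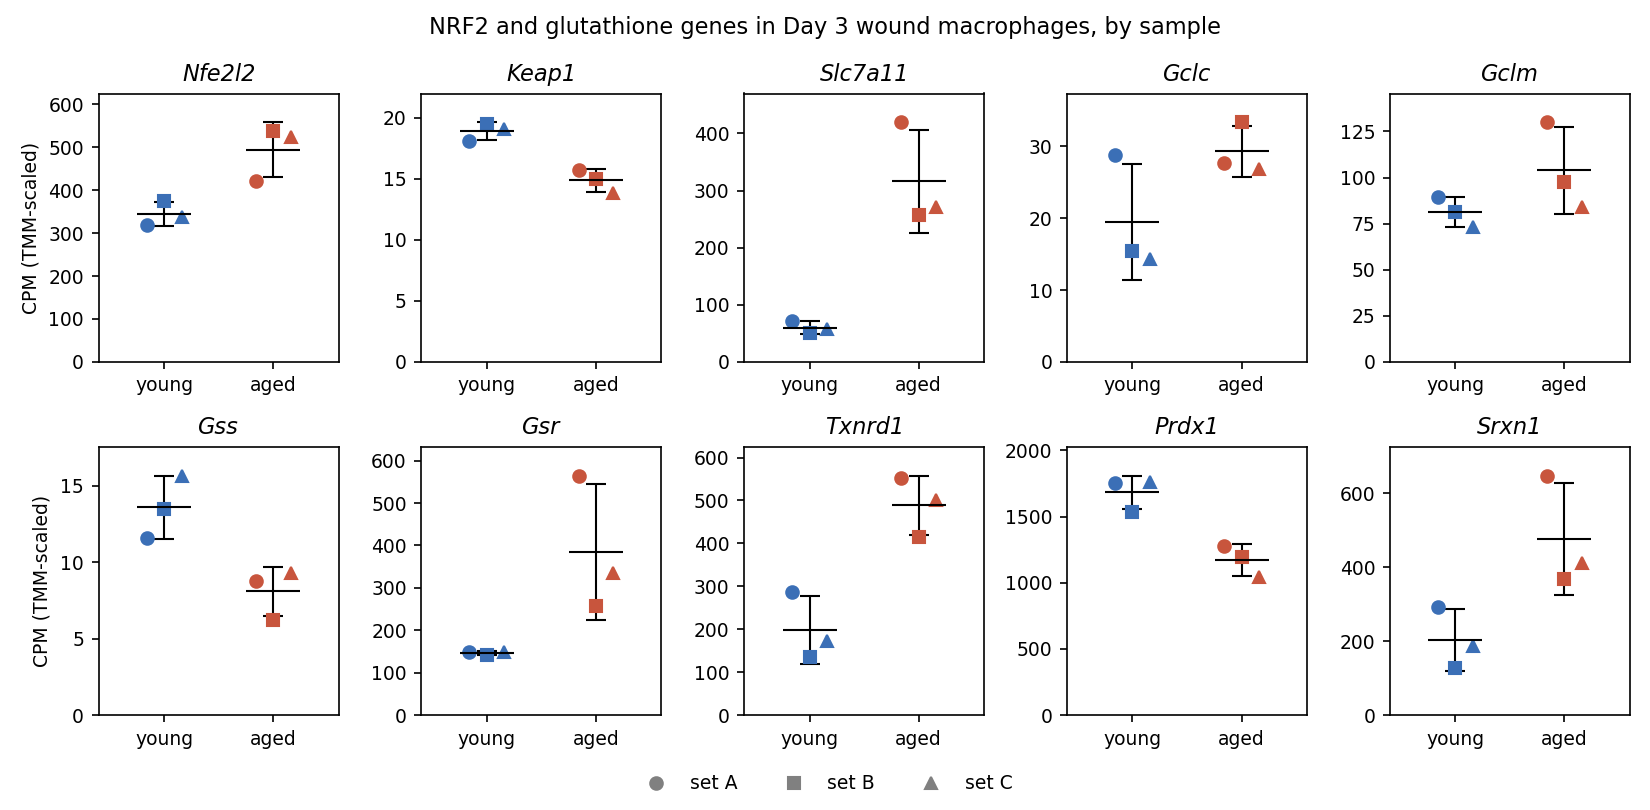
CPM of the 10 genes in each sample, 3 young (blue) and 3 aged (red) per panel, with set letters as symbols and bars for the mean ± SD; each panel has its own axis from 0. The aged samples of Slc7a11, Gsr, Txnrd1, Srxn1 and Nfe2l2 sit above all young samples, those of Keap1, Gss and Prdx1 below, and those of Gclc and Gclm overlap the young.

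Positions are of the gene in the mm10 build. Among the regulators, Nfe2l2 (ENSMUSG00000015839, chromosome 2, 75675513 to 75704641), the gene for NRF2 itself, had 319.8, 375 and 338 CPM in young samples A, B and C and 420.2, 539 and 523 CPM in aged samples A, B and C. All aged samples were higher than all young, with means of 344 ± 28.0 and 494 ± 64.3 CPM (SD, n = 3 each). The log2 fold change of 0.52 (SE 0.17) did not pass the adjusted threshold in the fit of all samples, and it passed with DESeq2 on all samples and without aged sample A.

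Keap1 (ENSMUSG00000003308, chromosome 9, 21229730 to 21239361), the cysteine-based sensor that targets NRF2 for degradation, had 18.1, 19.5 and 19.1 CPM in young and 15.8, 15.03 and 13.8 CPM in aged samples. The aged samples were all lower. The log2 fold change was -0.35 (SE 0.17) between means of 18.9 ± 0.742 and 14.9 ± 0.973 CPM, and it did not pass the threshold. The ratio of Nfe2l2 to Keap1 per kilobase, of 32.1, 34.9 and 32.2 in young samples, was 48.5, 65.1 and 68.7 in aged samples. With Nfe2l2 higher and Keap1 lower in every aged sample, this ratio could not overlap. It adds nothing to the values of the genes themselves. The exons of Keap1 overlap Gm16754 on the opposite strand, and whether counting used strand is not given in the sources used here.

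The largest difference of the set was in the RNA of a gene of cystine import. Slc7a11 (ENSMUSG00000027737, chromosome 3, 49892526 to 50443614) encodes xCT, the light chain of the antiporter that exchanges glutamate for cystine and thereby feeds glutathione synthesis. Its level was 71.9, 50.7 and 58.0 CPM in young samples and 419.6, 257 and 271 CPM in aged samples. Even the lowest aged sample stood 3.58 times above the highest young one. The means were 60.2 ± 10.8 and 316 ± 89.9 CPM, a fold change of 5.25 (log2 2.39, SE 0.23), and Slc7a11 was called in all 6 fits that left out 1 sample, at log2 fold changes of 2.14 to 2.54. Its partner chain Slc3a2, the heavy chain that carries several amino acid transporters to the membrane, was at 919, 909 and 945 CPM in young and 1404, 1135 and 1313 CPM in aged samples and did not pass the test in edgeR, with a log2 fold change of 0.47 (SE 0.17, adjusted p = 0.0739), but did with DESeq2. Slc3a2 was singled out after its values were seen.

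The glutamate-cysteine ligase, which catalyses the first and rate-limiting step of glutathione synthesis, overlapped between the ages in both of its subunits. Gclc (ENSMUSG00000032350, chromosome 9, 77754535 to 77794485), the catalytic subunit, had 28.8, 15.5 and 14.3 CPM in young and 27.7, 33.4 and 26.8 CPM in aged samples. Young sample A was the exception, lying above 2 of the 3 aged samples, and the log2 fold change of 0.58 (SE 0.26) did not pass; without young sample A it was 0.98 and passed, the single fit of 12 alternatives in which Gclc did. Gclm (ENSMUSG00000028124, chromosome 3, 122245557 to 122270732), the modifier subunit that lowers the feedback of glutathione on the enzyme, had 89.6, 81.3 and 72.9 CPM in young and 130.0, 97.6 and 84.1 CPM in aged samples. Its log2 fold change was 0.35 (SE 0.19) and passed in no fit. The Gclc to Gclm ratio per kilobase overlapped too, at 0.525, 0.311 and 0.320 in young and 0.349, 0.559 and 0.521 in aged samples.

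Gss (ENSMUSG00000027610, chromosome 2, 155563181 to 155592810) encodes glutathione synthetase, which adds glycine in the second step. It was the 1 glutathione gene of the set that was lower in aged macrophages. It had 11.6, 13.5 and 15.7 CPM in young and 8.76, 6.24 and 9.26 CPM in aged samples, all aged samples being lower (13.6 ± 2.05 against 8.09 ± 1.62 CPM, log2 fold change -0.75, SE 0.23). This passed the threshold narrowly: it did not pass in 5 of the 6 fits that left out a sample, with limma-voom, with DESeq2's size factors or with no filter on low counts. The exons of Gss overlap Acss2, Gssos1 and Gssos2 on the opposite strand; Acss2 was at a mean of 1.54 CPM.

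Gsr (ENSMUSG00000031584, chromosome 8, 33652523 to 33698163) encodes glutathione reductase, which returns oxidised glutathione to its reduced form with NADPH. It was the glutathione gene of the set with the second largest difference. Young samples were tightly grouped at 149.6, 142 and 148 CPM, while aged samples were spread over 565, 257 and 335 CPM, all of them higher. The means of 147 ± 4.07 and 385 ± 160.2 CPM gave a 2.63-fold rise (log2 1.39, SE 0.26). The call was lost without young sample C, where the log2 fold change was 1.40, and without aged sample A the log2 fold change was 1.02. Of the 5 glutathione genes, the RNA of Slc7a11 and Gsr was thus higher past the threshold of the call. That of the synthetase was lower at the threshold, and that of the ligase subunits did not pass.

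**Figure D2:**
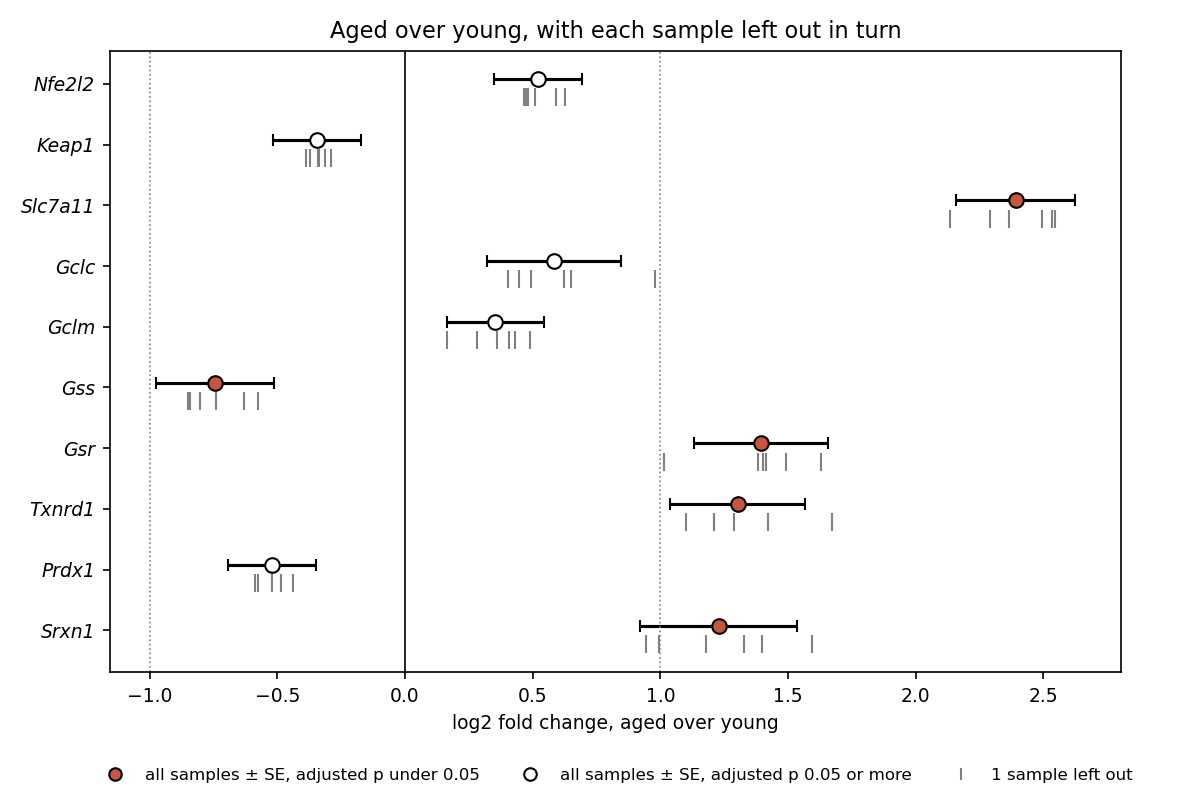
Log2 fold change of each gene, aged over young, with its standard error from edgeR (circles, filled where the adjusted p was under 0.05), and the values with each of the 6 samples left out in turn (ticks); dotted lines mark a 2-fold change. The lowest such value is 2.14 for Slc7a11 and 0.94 for Srxn1.

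Of the thioredoxin and peroxiredoxin genes, the reductase and the repair enzyme were higher past the threshold and the peroxidase did not pass it. Txnrd1 (ENSMUSG00000020250, chromosome 10, 82833951 to 82897712), cytosolic thioredoxin reductase, a selenoenzyme that reduces thioredoxin with NADPH, had 287, 136 and 172 CPM in young and 551, 416 and 501 CPM in aged samples. All aged samples were higher (198 ± 78.5 against 489 ± 68.7 CPM), a 2.47-fold rise (log2 1.30, SE 0.26) that was not called without young sample C, at 1.21. Srxn1 (ENSMUSG00000032802, chromosome 2, 152105516 to 152111376), sulfiredoxin, which repairs peroxiredoxins that have been over-oxidised, had 292, 129 and 188 CPM in young and 648, 368 and 412 CPM in aged samples. The aged samples were again all higher (203 ± 82.8 against 476 ± 150.5 CPM, 2.34-fold, log2 1.23, SE 0.31).

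The call of Srxn1 was the least steady of the 4: it was kept in 2 of 6 fits that left out a sample, and lost without young sample B (log2 0.99), young sample C (1.18), aged sample A (0.94) or aged sample C (1.33). Prdx1 (ENSMUSG00000028691, chromosome 4, 116685544 to 116700822), the abundant cytosolic peroxiredoxin that reduces hydrogen peroxide, went the other way. It had 1753, 1535 and 1759 CPM in young and 1282, 1193 and 1044 CPM in aged samples, with no overlap (1682 ± 128 against 1173 ± 120.1 CPM). Its log2 fold change of -0.52 (SE 0.17) did not pass by edgeR and did with DESeq2 and limma-voom. Across all 10 genes no alternative fit changed a direction.

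Samples of 1 age also differed from each other. Sample A was the highest of the young samples in 6 of the 10 genes (36.7% of all genes) and the highest of the aged samples in 7 (36.8% of all genes). The summed level of dendritic cell markers, over the 6 of 8 that were tested, was also highest in sample A of each age: 58.1 CPM in young A against 24.3 and 17.8 in young B and C, and 96.0 CPM in aged A against 31.2 and 43.4 in aged B and C. Xcr1 and Ccr7 carried this, at 19.2 and 17.9 CPM in young A and 34.5 and 44.7 CPM in aged A. Cd209a was also highest in sample A of each age, Flt3 and Zbtb46 were so among aged and not among young samples, and Dpp4 among young and not among aged samples. These 5 besides Ccr7 were named after their values were seen, and Clec9a has no row in the matrix. None of the 6 passed the test between the ages, Ccr7, the most abundant, included. Summed over 12 tested of 15, neutrophil markers were at 717 to 1217 CPM in young and 926 to 1582 CPM in aged samples, with 4 of the 12 passing as higher in aged macrophages, against 9.73% of all genes. These were Cd177 (log2 fold change 1.62), Cxcr2 (1.13), Lcn2 (0.99) and Retnlg (0.85), named after their values were seen. Of the 8 that did not pass, only Mmp9 (-0.54) and Ltf (-0.31) had a log2 fold change below 0, and Ly6g was at 0.05 (adjusted p = 0.9234). Those too were named after their values were seen. Camp and Mpo have no row, and S100a9, the most abundant, did not pass (log2 fold change 0.20, adjusted p = 0.6999). Aged sample B held 96.2 CPM of the tested keratinocyte markers, against 8.48 or less in the others, mostly Krt14 at 80.2 CPM. This sum leaves out Krt5, Krt10, Krt1, Krt6a and Krt16, untested and named after their values were seen. They had 108 to 225 counts in aged B and 10 or fewer in any other sample. Of 9 keratinocyte markers only Krt14 and, outside the naming rule, Sfn got past the filter on low counts, Krt14 through the aged samples alone, so no count of passing markers is given for this list. Fibroblast markers, led by Col3a1, summed to 120.4 CPM in aged B and to 41.4 CPM or less in the others, with none of 6 tested passing. Of 5 endothelial markers 2 were tested: Pecam1, which leukocytes also express, rose from 8.03 ± 1.82 to 25.9 ± 2.08 CPM (log2 1.69, adjusted p = 0.0022), and Kdr, also named after its values were seen, did not pass (log2 -0.40, adjusted p = 0.6338), while Cdh5, Tie1 and Emcn were under the filter on low counts. Of 6 T and NK cell markers only Nkg7 was tested, at 1.604 CPM or less in any sample. Of 8 macrophage markers, 1 rose and 1 fell, both sort genes, and Lyz2, the most abundant, did not pass. In aged samples the neutrophil sum, at 1582, 926 and 1558 CPM in A, B and C, had the same order as Slc7a11, Gsr, Txnrd1 and Srxn1, and in young samples it was lowest in A. The part of these cells in the levels of the 10 genes was not tested. Of the 10 genes, 4 were called without young sample A or aged sample B, 3 without young sample B, aged sample A or aged sample C, and 1 without young sample C.

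**Figure D3:**
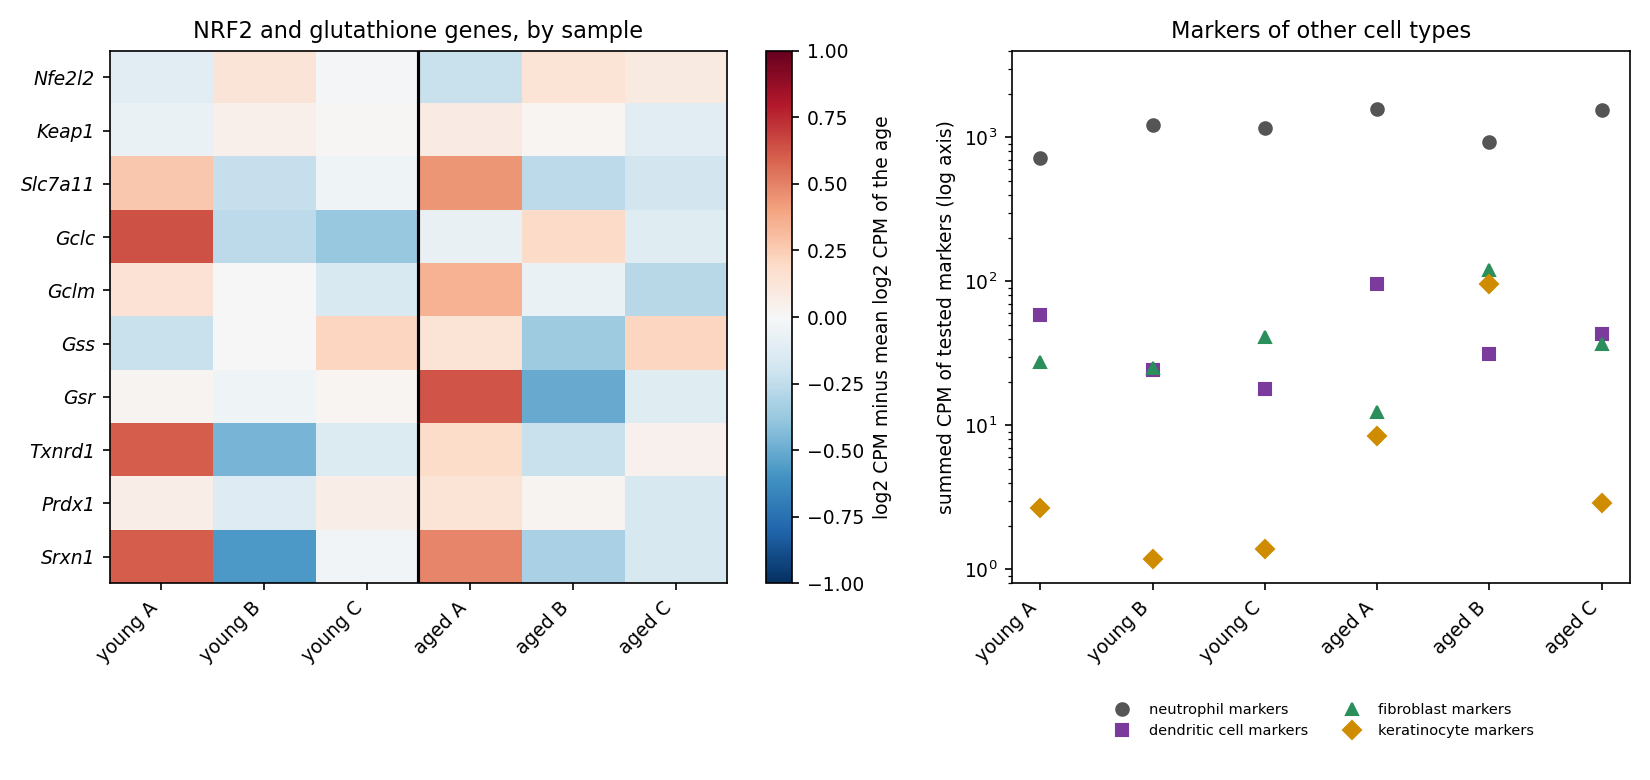
Left, log2 CPM of each of the 10 genes in each sample minus the mean of its age, as a colour scale from blue (lower) to red (higher); right, the summed CPM of the tested markers of other cell types in the same samples, on a log axis. Sample A is the highest aged sample for each of the 4 genes called higher, and the dendritic cell sum is highest in sample A of each age at 58.1 and 96.0 CPM, while aged B holds the most keratinocyte and fibroblast markers.

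The remaining genes of the pathway were taken from 5 lists of 64 genes, of which 60 were tested. The lists were written from general knowledge, but with earlier results of these data known. Their adjusted p-values therefore place each gene in the fit across all genes and are no independent test of it. Of the 60 genes, 9 were higher and 5 lower in aged macrophages at an adjusted p under 0.05, and 46 did not pass. With the fold threshold, 4 were called higher and 2 lower. As shares of the 60, 15% passed higher and 8.33% lower, against 9.73% and 7.97% of all genes, and 6.67% were called higher and 3.33% lower, against 4.59% and 4.20%. The median log2 fold change was 0.02, as against -0.02 over all genes.

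Among 10 partners and regulators of NRF2, 2 rose and none fell, with a median of 0.58. Mafg, a small MAF protein with which NRF2 binds DNA, rose (log2 fold change 1.03, SE 0.25, adjusted p = 0.0238). It was at 55.4, 40.3 and 30.6 CPM in young and 114, 76.6 and 68.4 CPM in aged samples. The other small MAF genes listed, Maff and Mafk, were named after their values were seen. Maff (log2 0.88, adjusted p = 0.0705) and Mafk (log2 0.52, adjusted p = 0.2236) did not pass in edgeR, and Maff did with DESeq2. Sqstm1, the p62 autophagy receptor that takes KEAP1 out of action and is itself an NRF2 target, rose from 1506 ± 302 to 2970 ± 688 CPM (log2 0.98, SE 0.23, adjusted p = 0.0206). Atf4, whose response letters were found before Slc7a11, was singled out for that. It had a log2 fold change of 0.45 (adjusted p = 0.0930), with all aged samples above all young, as in 19.2% of all genes.

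Of 16 other NRF2 targets, 1 rose, 1 fell and 14 did not pass, with a median of 0.04. Osgin1, an oxidative stress-induced growth inhibitor, was at 10.51, 12.6 and 7.40 CPM in young and 43.9, 13.4 and 18.2 CPM in aged samples, aged A being by far the highest (log2 fold change 1.30, SE 0.40, adjusted p = 0.0466). It passed in 1 of 6 fits that left out a sample, the one without aged sample B, and without aged sample A the log2 fold change was 0.64. With all samples kept, Osgin1 did not pass with limma-voom (log2 1.13), with no filter on low counts (1.31) or with the set letter as a replicate block (1.16). Blvrb, biliverdin reductase B of haem breakdown, fell from 112 ± 16.6 to 49.2 ± 8.68 CPM (log2 -1.19, SE 0.19, adjusted p = 0.0059). Fth1, the ferritin heavy chain and the most abundant of the list, was at 23483 ± 2024 and 34100.1 ± 4967 CPM and did not pass by edgeR (log2 0.54, adjusted p = 0.0977), but did with DESeq2. The most used reporters of NRF2, named after their values were seen, did not pass by edgeR either. Hmox1, which passed with DESeq2, had a log2 fold change of 0.55 (adjusted p = 0.1006), with all aged samples above all young. Nqo1, at 1.91 to 3.26 CPM in any sample, had -0.48 (adjusted p = 0.3068), with all aged samples below all young. Over all genes, 19.2% were separated upward and 19.0% downward in this way.

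Of 17 genes of glutathione supply, use and breakdown, 3 rose and 2 fell, with a median of -0.28. Chac1, which cleaves glutathione in the cytosol, was at 1.11, 0.821 and 2.51 CPM in young and 6.94, 22.8 and 15.997 CPM in aged samples, the largest fold change of these lists (log2 3.38, SE 0.50, adjusted p = 0.0044). Oplah, which opens the 5-oxoproline that this cleavage releases to give glutamate, rose from 2.10 ± 0.779 to 5.201 ± 0.258 CPM (log2 1.30, SE 0.33, adjusted p = 0.0265). Hagh, which frees glutathione from the methylglyoxal adduct, fell from 43.3 ± 6.99 to 21.4 ± 3.79 CPM (log2 -1.02, SE 0.19, adjusted p = 0.0110). Gpx1, the peroxidase that spends glutathione on hydrogen peroxide and the most abundant of the list, fell from 3136 ± 533 to 1948 ± 230.2 CPM (log2 -0.69, SE 0.20, adjusted p = 0.0377). Glrx, glutaredoxin, outside the naming rule, was the third that rose (log2 0.85, adjusted p = 0.0163).

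Of 13 genes of the thioredoxin and peroxiredoxin system, 2 rose and 1 fell, with a median of -0.16. Prdx6, a peroxiredoxin that draws on glutathione and the most abundant of the list, rose from 660 ± 91.1 to 1085 ± 197 CPM (log2 0.72, SE 0.20, adjusted p = 0.0327). The others, named after their values were seen, were Sesn2, a stress-induced sestrin (log2 0.74, adjusted p = 0.0269), and Prdx4, the peroxiredoxin of the endoplasmic reticulum (log2 -0.76, adjusted p = 0.0161). Of 4 superoxide and catalase enzymes, Sod2, the mitochondrial superoxide dismutase, rose from 308 ± 57.8 to 548 ± 120.0 CPM (log2 0.83, SE 0.21, adjusted p = 0.0258), and Cat, catalase, also named after its values were seen, fell (log2 -0.71, adjusted p = 0.0353). With the set letter as a replicate block, Cat did not pass, at a log2 fold change of -0.68. Of the 14 genes, 6 also passed without young sample B, 7 without aged sample A, and 3 each without young sample C or aged sample C. Blvrb and Chac1 passed in all 6 fits that left out a sample, Hagh in 5, Glrx and Prdx4 in 4, Mafg, Sqstm1 and Oplah in 3, Gpx1, Sesn2 and Sod2 in 2, and Osgin1, Prdx6 and Cat in 1.

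**Figure D4:**
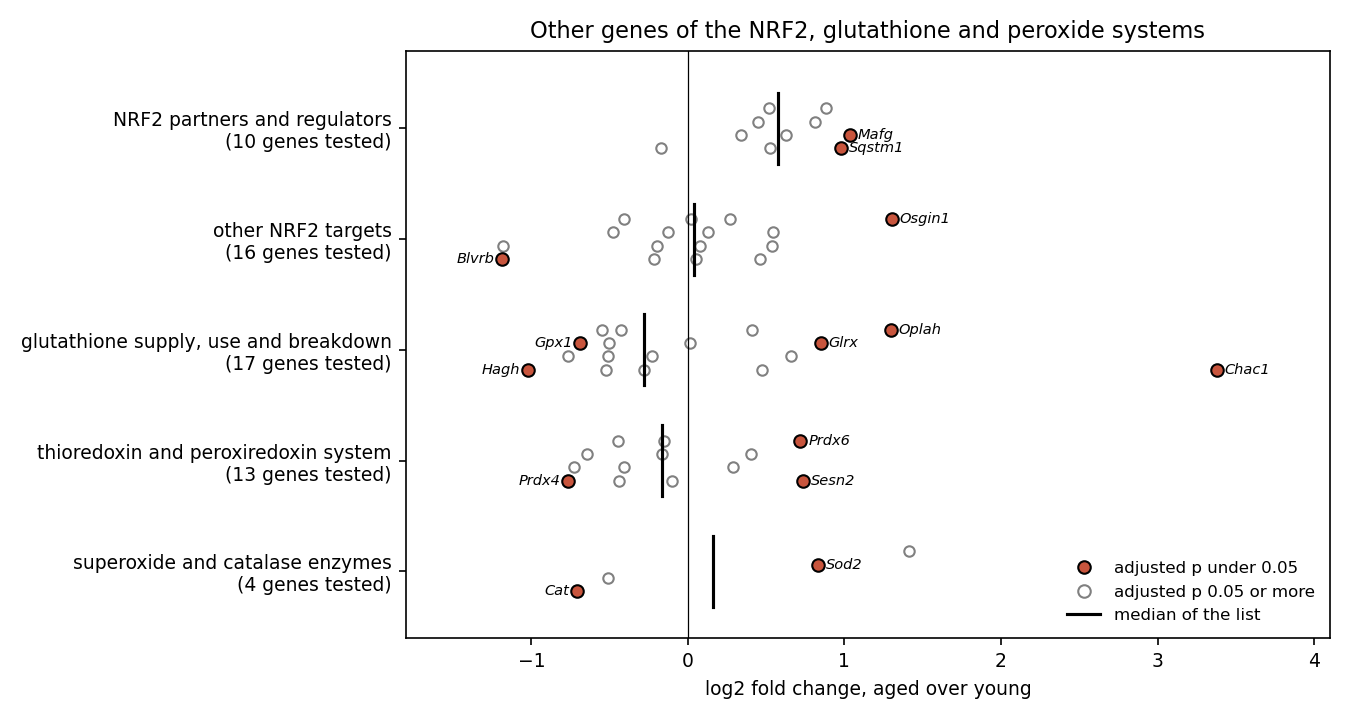
Log2 fold change, aged over young, of the 60 tested genes of the 5 pathway lists; filled circles had an adjusted p under 0.05 by edgeR and are named, and bars mark the median of each list. Genes lie on both sides of 0 in every list, and 9 filled circles are to the right and 5 to the left.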

How the data were processed

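Day 3 wound macrophages of 3 young and 3 aged samples were compared. Per the study's methods and the submitters' processing notes, the authors sequenced SMART-Seq libraries as paired-end reads, aligned them with STAR 2.7.3a on mm10 and quantified Ensembl transcripts (release 102) in Partek; DESeq2 was their test. They deposited expected counts per gene, of which 30.3% to 33.9% per sample were not whole; these were rounded. Every row summed to at least 10 counts. A second deposited table, with the authors' own fold changes and p-values and a scaled copy of the counts, was not used here, nor was a text on their pipeline.

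Genes were filtered (filterByExpr), scaled by TMM and fitted by age with edgeR 4.0.16 (quasi-likelihood), with Benjamini-Hochberg adjustment over 11878 genes and a call at adjusted p under 0.05 and over 2-fold. The biological coefficient of variation was 0.239. DESeq2 1.42.0, limma-voom (limma 3.58.1), DESeq2's size factors, other filters, a replicate block and leaving out each sample were alternatives. Scripts were tested on simulated data. The members and lists were chosen with earlier results of these data known. Genes named were all members, list genes called at over 2-fold, and the most abundant gene of each pathway list, with the sort genes and the most abundant gene of each marker list; others are marked in the text. Counts in Gclm, Slc7a11, Txnrd1, Prdx1 and Keap1 were not whole in 2 to 6 samples. CPM are TMM-scaled; SDs are between samples. Depth of 1 count was 0.0553 to 0.0701 CPM.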

Additional observations from a re-analysis of the deposited data

How the results depend on the processing

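Across 120 alternative values of the 10 genes' log2 fold changes none changed sign, 14 fell below the threshold and 5 newly passed it. With each sample left out in turn, genes called ran from 213 (without young sample C) to 1503 (without young sample A), against 1044 with all samples; 521 were called without young sample B and 475 without aged sample C. With no fold threshold 2103 genes passed. Of the 10 genes, 1 (without young sample C) to 4 were called. The other pathway genes passing ran from 3 (without young sample C or aged sample C) to 13, against 14; 6 passed without young sample B and 8 without aged sample A, 7 of them among the 14. DESeq2 gave 20, all 14 among them, and 14 of the 20 were higher. The labels do not say what the set letters mean, and with 3 samples per age correlations cannot decide whether they pair the samples. Same-letter deviations correlated at 0.18 (A), -0.02 (B) and 0.11 (C), and 1 of 3 young samples correlated best with its own letter. With the letter as a replicate block 1056 genes and 4 of the 10 were called, and 12 pathway genes passed, without Osgin1 and Cat. Depth limits the genes of a few CPM, such as Chac1 and Oplah. With 3 samples per age, single samples decide several calls.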
